A study of Homo sapiens with 11 samples.

Results

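The keratin gene clusters were examined in a human line of triple-negative breast cancer, MDA-MB-231. The members were taken by position on hg19 and not by their values, but earlier results of these data were known when the clusters were chosen. The type II span, with KRT18, ran on chromosome 12 from 52560001 to 53350000 (790 kb), and the type I span on chromosome 17 from 38800001 to 39790000 (990 kb). Chromatin immunoprecipitation and sequencing (ChIP-seq) had been done with antibodies to H3K4me3, H3K36me3, H3K9me3, H4K20me3 and MINA. Each antibody was used on 1 sample of WT cells, which make the mdig protein (also MINA53 or RIOX2), and on 1 sample of KO cells, which were made by CRISPR-Cas9 and make no mdig. Per the labels' protocols the WT cells also came from CRISPR-Cas9 work and all cells were grown in blasticidin. The sources used here do not say how many clones stand behind either genotype. The 10 lists held 136 intervals in the spans, 60 in the type II and 76 in the type I span, of 229591 on chromosomes 1 to 22 and X. An interval is a stretch that the authors' caller found enriched, and it has a position and a width but no height.

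Keratins form the intermediate filaments of epithelial cells. A type I keratin always pairs with a type II keratin, and each cell type uses its own pairs. KRT8 with KRT18, joined by KRT7 and KRT19, are the keratins of simple epithelia such as the luminal cells of the breast. KRT5 with KRT14 is the pair of basal cells, KRT1 with KRT10 that of the upper epidermis, and most other members serve hair and specialised epithelia and are silent elsewhere. H3K4me3 marks active promoters and H3K36me3 the bodies of transcribed genes, while H3K9me3 and H4K20me3 mark silent heterochromatin. Mdig carries the JmjC fold of the histone demethylases and is an oxygenase of ribosomal protein. Expression was not measured here, so active and silent refer to the marks alone.

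In the order of the RefSeq genes on GRCh38.p14, the type II cluster has 27 keratin genes and no other protein-coding gene. KRT80 and KRT7 open it, KRT86, KRT81 and KRT83 follow, and KRT78, KRT8 and KRT18 close it. The type I cluster has 28 keratin genes, from KRT222 and KRT24 at its start to KRT19, KRT9, KRT14, KRT16 and KRT17 at its end, and 34 genes of keratin-associated proteins (KRTAP), the matrix proteins of hair, in its middle. Of the 55 keratins, 7 belong to the simple epithelial list, 21 to the epidermal and stratified list, 26 to the hair list and KRT222 to none. The order tells which genes lie towards either end of a span, not at which distance. Intervals were not assigned to single genes, because the annotation at hand is not of the build of the intervals, and they are located by their distance from the start of the span.

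With 1 library per antibody and genotype there were no replicates and no test was run, so every difference below describes these libraries. The read depth is unknown. Lists called with more reads or better enrichment hold more and wider intervals, and this cannot be told apart from a change in a mark. The number of intervals per list ranged from 7859 (MINA in KO) to 53375 (H3K9me3 in KO).

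**Figure D1:**
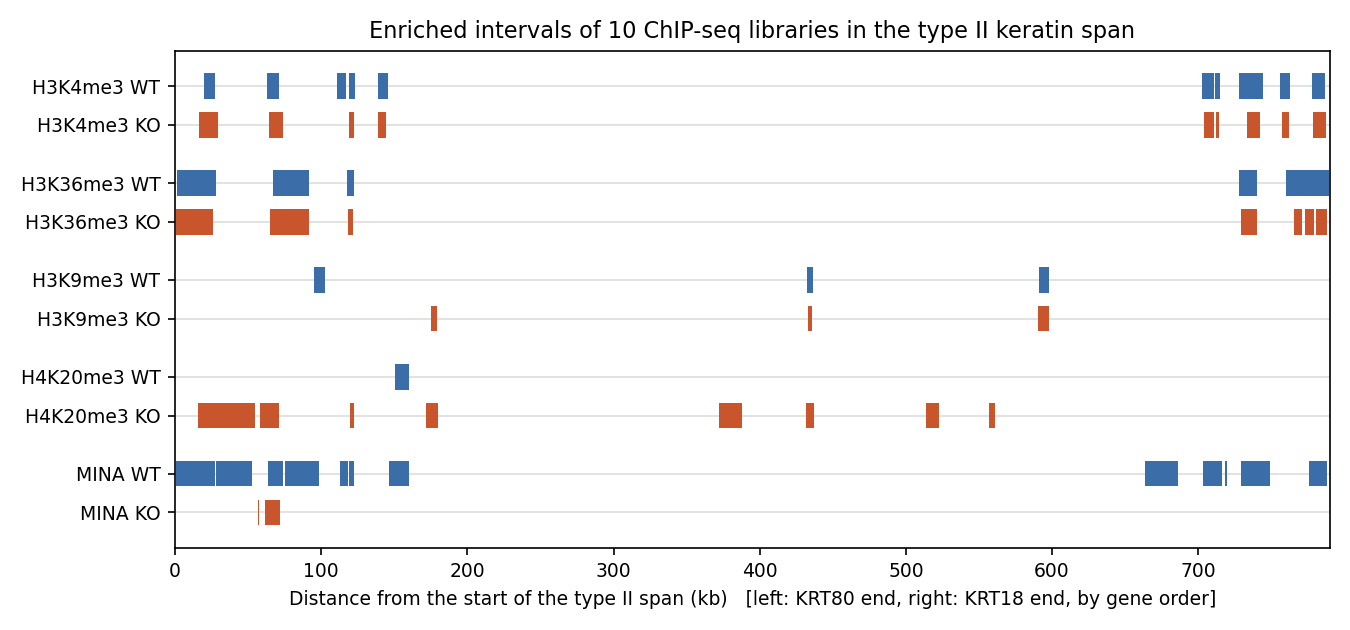
Intervals of the 10 libraries (rows) along the 790 kb of the type II span, with distance from its start in kb on the x axis, WT in blue and KO in orange. H3K4me3, H3K36me3 and most MINA intervals lie at the 2 ends, with no H3K4me3 or H3K36me3 from 145.4 to 702.6 kb, and the KO H4K20me3 intervals lie in the first 561.2 kb.

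The type II span carried active marks at its ends only. H3K4me3 lay in 10 intervals over 75.6 kb in WT and in 9 over 63.4 kb in KO, and H3K36me3 in 5 over 97.6 kb and 7 over 85.8 kb. Neither mark had an interval in either genotype for 557.2 kb, from 52705401 to 53262600, which is 70.5% of the span. In gene order the near end begins with KRT80 and KRT7, followed directly by the hair keratins KRT86, KRT81 and KRT83, and the far end closes with KRT78 of stratified epithelia, KRT8 and KRT18. Which of these genes the marks lie on was not resolved. The genes farther from both ends are keratins of stratified epithelia and hair, among them KRT75, KRT5, KRT71, KRT2, KRT1 and KRT4.

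At the near end H3K4me3 covered 32.0 kb in each genotype. The WT interval from 19.6 to 27.4 kb (chromosome 12, 52579601 to 52587400) was 7.8 kb wide, and its KO partner from 16.4 to 29.4 kb was 13.0 kb wide. The next, from 63.2 to 71.4 kb in WT (52623201 to 52631400), was 8.2 kb wide in WT and 9.8 kb in KO. Both were thus wider in KO, the opposite of the shorter H3K4me3 length of KO over the whole span. The following WT interval, from 110.8 to 116.8 kb, was not found in KO. Those from 119.2 to 122.8 kb and from 139.0 to 145.4 kb were found, with KO widths of 3.4 and 5.8 kb against 3.6 and 6.4 kb. H3K36me3 lay here in 3 intervals in each genotype, over 56.4 kb in WT and 55.2 kb in KO. The first pair of these covered 27.0 kb in WT (1.2 to 28.2 kb) and 25.2 kb in KO (0.4 to 25.6 kb). The second pair covered 24.6 kb (67.2 to 91.8 kb) and 26.4 kb (65.0 to 91.4 kb), and the last, from 117.6 kb in WT, 4.8 kb and 3.6 kb. The near end thus had nearly equal lengths of both active marks in WT and KO, with a KO over WT ratio of 1.00 for H3K4me3 and 0.979 for H3K36me3.

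At the far end, towards which KRT8 and KRT18 lie, all 5 WT intervals of H3K4me3 were found in KO, and all 5 KO intervals lay inside the outline of the WT ones or within 0.6 kb of it. The widest WT interval, from 728.2 to 744.4 kb (53288201 to 53304400), was 16.2 kb wide in WT and 9.0 kb in KO. The last one, from 777.6 to 787.0 kb (53337601 to 53347000), was 9.4 kb wide in WT and 8.8 kb in KO. The other 3 were 8.0, 3.4 and 6.6 kb wide in WT and 6.4, 2.2 and 5.0 kb in KO. Together they covered 43.6 kb in WT and 31.4 kb in KO, a ratio of 0.720. H3K36me3 covered 41.2 kb in 2 WT intervals and 30.6 kb in 4 KO intervals, a ratio of 0.743. The WT interval of 29.0 kb from 760.4 to 789.4 kb appeared in KO as 3 pieces of 5.8, 6.2 and 7.6 kb, and the other one was 12.2 kb wide in WT and 11.0 kb in KO. Every far-end interval of H3K4me3 was narrower in KO. Over chromosomes 1 to 22 and X the ratio was 0.844 for H3K4me3 and 1.00 for H3K36me3, and over the rest of chromosome 12, flanks included, it was 0.799 and 0.931.

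The type I span carried less of both active marks, and their intervals were scattered. H3K4me3 lay in 8 intervals over 38.6 kb in WT (3.90% of the span) and in 6 over 29.6 kb in KO (2.99%), beside 9.57% and 8.03% in the type II span. H3K36me3 covered 16.4 and 15.2 kb in 3 intervals each, and was absent from 702.8 kb between 174.8 and 877.6 kb in both genotypes. The widest H3K4me3 interval, from 876.0 to 887.6 kb (chromosome 17, 39676001 to 39687600), was 11.6 kb wide in WT and 11.0 kb in KO. It lay with H3K36me3 from 877.8 to 887.4 kb in WT and from 877.6 to 886.0 kb in KO, in the last part of the span. Its neighbour from 901.2 to 906.4 kb was 5.2 kb wide in WT and 3.0 kb in KO. A further H3K4me3 interval with H3K36me3, from 172.2 to 178.4 kb (38972201 to 38978400), was 6.2 kb wide in WT and 6.0 kb in KO, and its H3K36me3 was 3.6 and 2.8 kb wide.

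**Figure D2:**
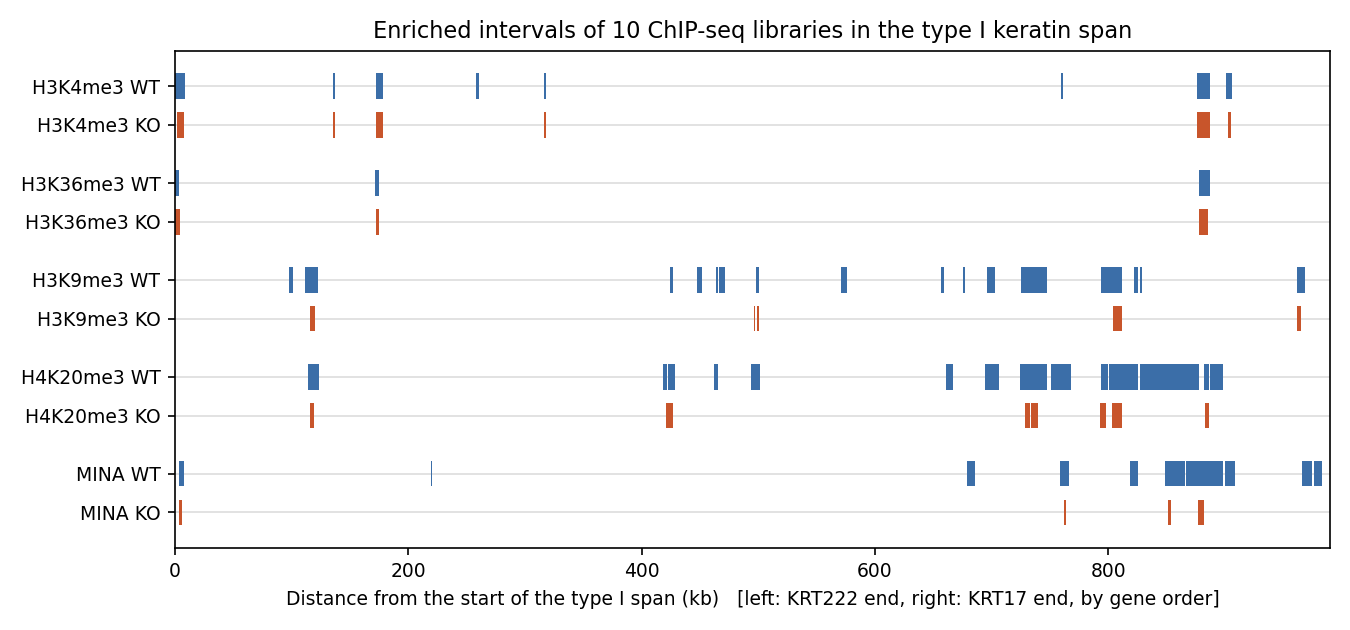
Intervals of the 10 libraries (rows) along the 990 kb of the type I span, with distance from its start in kb on the x axis, WT in blue and KO in orange. The H3K9me3, H4K20me3 and MINA rows are sparser in KO than in WT, while the widest H3K4me3 interval, from 876.0 to 887.6 kb in WT, is in both genotypes.

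At the start of the type I span an H3K4me3 interval of 8.4 kb in WT crossed the border, at -0.2 to 8.2 kb, and its KO partner of 6.2 kb lay from 1.4 to 7.6 kb. H3K36me3 lay there from -17.2 to 3.2 kb in WT and from -17.4 to 4.0 kb in KO. These intervals reach into the neighbouring chromatin, and which gene they belong to was not tested. The other H3K4me3 intervals were small. Those at 135.6 and 316.2 kb were 1.2 and 1.6 kb wide in WT and 1.2 and 2.2 kb in KO, and those at 257.6 and 759.8 kb, of 3.2 and 1.4 kb, were not found in KO. In both spans together, 3 of the 18 WT intervals of H3K4me3 were not found in KO, which is 16.7% (95% Wilson interval 5.84% to 39.2%, counting error only) beside 14.9% of the whole WT list. All 15 KO intervals had a WT partner (0 without one, upper Wilson bound 20.4%), where 5.85% of the whole KO list had none. For H3K36me3 each of the 8 WT and 10 KO intervals had a partner (upper bounds 32.4% and 27.8%), where 14.5% of each whole list had none. In each case the share of the whole list lay inside the counting interval of the keratin share.

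H4K20me3 differed in opposite directions in the clusters, and H3K9me3 covered less in KO in both. In the type I span H4K20me3 covered 186.6 kb in 14 intervals in WT (18.8% of the span) and 35.2 kb in 7 intervals in KO (3.56%), a ratio of 0.189. H3K9me3 covered 97.6 kb in 16 intervals in WT and 17.6 kb in 5 intervals in KO, a ratio of 0.180. In the type II span H4K20me3 covered 9.2 kb in 1 interval in WT (1.16%) and 97.8 kb in 8 intervals in KO (12.4%), a ratio of 10.6, while H3K9me3 covered 18.2 and 14.8 kb in 3 intervals each. That H3K9me3 difference lay at the near end, where the only WT interval, of 7.4 kb, had no KO partner. In the 557.2 kb of the middle KO had more H3K9me3, 14.8 kb beside 10.8 kb, a ratio of 1.37. Over chromosomes 1 to 22 and X the KO list was the longer one for both marks, with a ratio of 2.23 for H4K20me3 and 1.20 for H3K9me3.

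**Figure D3:**
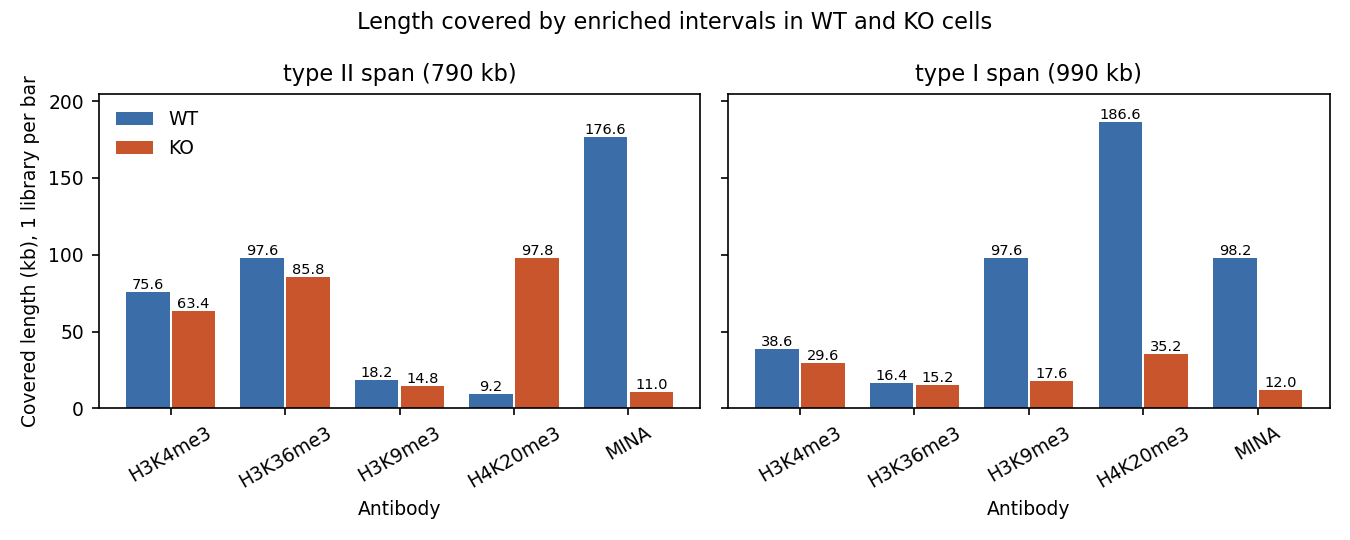
Covered length in kb (y axis, from 0) for each antibody (x axis) in the type II span on the left and the type I span on the right, with 1 library per bar and no error bars, WT in blue and KO in orange. H4K20me3 stands at 9.2 kb in WT and 97.8 kb in KO in the type II span, and at 186.6 kb in WT and 35.2 kb in KO in the type I span.

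In the type I span 9 of the 14 WT intervals of H4K20me3 lay between 660.8 and 898.4 kb. The widest interval covered 51.0 kb from 827.0 to 878.0 kb (39627001 to 39678000) and was not found in KO. The next 4 covered 25.4 kb from 800.6 kb, 23.4 kb from 724.2 kb, 17.4 kb from 750.8 kb and 12.4 kb from 694.4 kb. Of these, the intervals at 750.8 and 694.4 kb were also absent in KO, and the other 2 were left as pieces of 8.0 kb and of 3.8 and 6.0 kb. The 7 KO intervals were 3.2 to 8.0 kb wide and all 7 overlapped WT H4K20me3. Besides those named, the wider ones were 6.2 kb from 420.6 kb and 4.6 kb from 793.4 kb. Of the KO length 97.2% was covered in WT too, so the KO list was close to a subset of the WT list here. One of them, from 882.8 to 886.2 kb, lay inside the widest H3K4me3 interval of the span, where WT had H4K20me3 from 882.6 to 886.2 kb. The stretch from 876.0 to 906.4 kb thus carried H3K4me3, H3K36me3 and H4K20me3 in both genotypes, with H4K20me3 over 55.9% of it in WT and 11.2% in KO.

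H3K9me3 in the type I span overlapped H4K20me3 for 65.0 of its 97.6 kb in WT. This is 66.6%, beside 13.6% of the length of the whole WT list of H3K9me3. WT H4K20me3 itself covered 18.8% of the span and 2.28% of all chromosomes, so the higher share does not by itself show a closer association. The widest H3K9me3 intervals of WT covered 21.8 kb from 725.4 to 747.2 kb (39525401 to 39547200) and 18.2 kb from 793.6 to 811.8 kb. The next covered 11.0 kb from 111.4 kb, 6.8 kb from 961.6 kb and 6.2 kb from 696.4 kb. That of 21.8 kb was not found in KO, although KO H4K20me3 still covered 9.8 kb of it. The interval at 793.6 kb was left with 7.4 kb and that at 111.4 kb with 4.0 kb, both with H4K20me3 on them in KO. The interval at 961.6 kb, the last of the span, was left with 3.4 kb. Between 318.2 and 759.8 kb, a stretch with no H3K4me3 or H3K36me3 in which 10 WT intervals of H3K9me3 covered 53.6 kb, KO had 2 intervals over 2.8 kb. KO H3K9me3 was thus found at 4 of the 16 WT places, one of them with 2.0 kb from 498.8 kb, and the remaining KO interval was 0.8 kb wide.

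Windows as long as the spans, laid end to end over chromosomes 1 to 22 and X, give the background for these ratios. H3K9me3 was at least 2-fold lower in KO in 46.8% of the 2733 windows of 990 kb with at least 10 kb of the mark in WT and KO together. The ratio of the type I span itself, 0.180, was lower than this limit asks, and how common such a ratio is was not counted. H4K20me3 was at least 2-fold lower in 432 of 2164 such windows (20%), and at least 2-fold higher in 50.9% of 2492 windows of 790 kb. The H4K20me3 ratios of the spans, 0.189 in type I and 10.6 in type II, also went past the limit, and their frequency was not counted. By interval number, 13 of 19 WT intervals of H3K9me3 in both spans were not found in KO (68.4%, 95% Wilson interval 46.0% to 84.6%). The share of the whole list, 31.4%, lies below that counting interval. By span it was 12 of 16 in the type I and 1 of 3 in the type II span, so the pooled share describes mainly the type I span. The Wilson interval takes intervals as independent, which neighbours in 1 library may not be. Of the 8 KO intervals of H3K9me3 2 had no WT partner (25.0%, 7.15% to 59.1%), beside 47.2% of the KO list. For H4K20me3 8 of 15 WT intervals were not found in KO (53.3%, 30.1% to 75.2%), beside 44.6% of the list. Of its KO intervals 8 of 15 were not found in WT (53.3%, 30.1% to 75.2%), beside 80.4% of the list, which lies above that counting interval. These were all 8 KO intervals of the type II span and 0 of the 7 of the type I span, so the pooled KO share describes neither span.

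**Figure D4:**
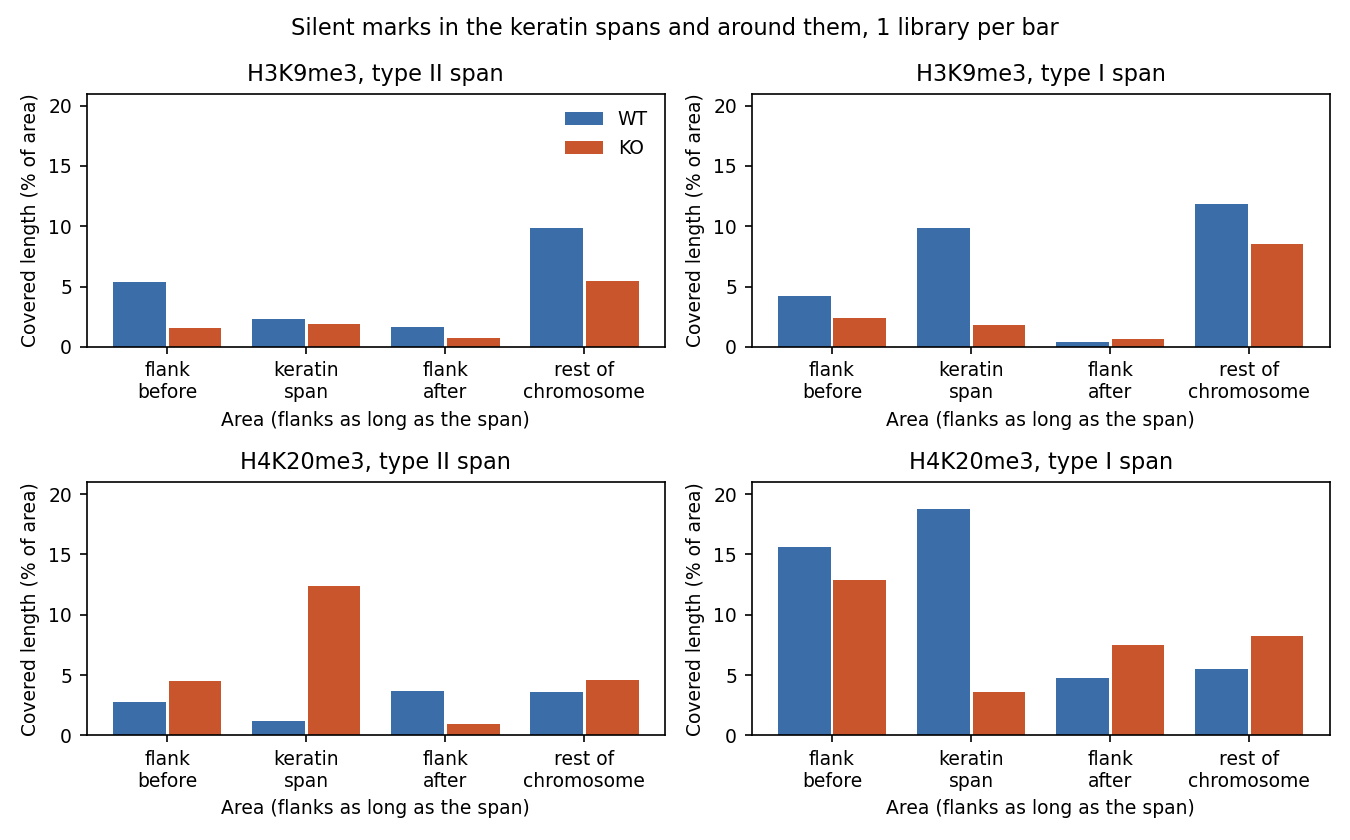
Share of each area covered by H3K9me3 (top) and H4K20me3 (bottom), in % on the y axis from 0, for the span, a flank of the same length on either side and the rest of the chromosome, with 1 library per bar, WT in blue and KO in orange. In the type I span H4K20me3 covers 18.8% in WT and 3.56% in KO, while in the flank before it the shares are 15.6% and 12.9%.

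The flanks differed from the spans. Before the type I span H4K20me3 covered 154.6 kb in WT and 127.6 kb in KO, a ratio of 0.825, and after it 46.8 and 74.4 kb, a ratio of 1.59. The rest of chromosome 17 had a ratio of 1.50 for H4K20me3 and 0.726 for H3K9me3. In the flank before the span H3K9me3 covered 41.8 and 24.0 kb, and in the flank after it 3.6 and 6.6 kb. In the type II span the H4K20me3 ratio of 10.6 stood beside 1.63 in the flank before, 0.250 in the flank after and 1.28 in the rest of chromosome 12. For H3K9me3 the ratio in the type II span, 0.813, was above those of both flanks (0.283 and 0.438) and of the rest of chromosome 12 (0.554). None of these differences between areas was tested.

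In the type II span none of the H4K20me3 was shared between the genotypes. The WT interval lay from 150.6 to 159.8 kb (chromosome 12, 52710601 to 52719800). The widest KO interval covered 39.4 kb from 15.4 to 54.8 kb (52575401 to 52614800), the next 16.2 kb from 372.0 kb, then 13.2 kb from 58.2 kb, 8.8 kb from 514.0 kb and 8.0 kb from 172.0 kb. The near end held 55.4 kb of the KO mark, and the far end held none. The KO intervals at 15.4, 58.2 and 119.6 kb overlapped H3K4me3 of KO cells for 13.0, 7.4 and 2.8 kb, and H3K36me3 for 10.2, 6.4 and 2.2 kb. The first of these contained the whole 13.0-kb H3K4me3 interval that was wider in KO. In KO, H3K4me3 and H4K20me3 thus overlapped for 36.6% of the H3K4me3 length of the span, beside 14.5% over all chromosomes. KO H4K20me3 itself covered 12.4% of the span and 5.08% of all chromosomes, and the overlap shares are not corrected for this. In WT, where H4K20me3 covered 1.16% of the span, the 2 marks did not overlap here. ChIP-seq of a cell population does not show whether both marks were on the same copy of the locus.

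The KO H4K20me3 of the type II span lay little on H3K9me3. Of its 97.8 kb, 7.36% was on KO H3K9me3 and 4.09% on WT H3K9me3, beside 60.7% and 57.2% over all chromosomes. There was little H3K9me3 to overlap: it covered 1.87% of the span in KO and 2.30% in WT, beside 10.4% and 8.65% of all chromosomes. The H4K20me3 intervals from 372.0, 514.0 and 557.2 kb, in the middle without H3K4me3 or H3K36me3, overlapped no other list. The intervals at 172.0 and 431.4 kb covered KO H3K9me3 for 4.4 and 2.8 kb, and the latter contained the WT H3K9me3 interval from 432.6 to 436.6 kb. The H3K9me3 pair from 591.0 to 597.8 kb in WT and from 590.4 to 598.0 kb in KO had no H4K20me3, and the WT interval from 95.2 to 102.6 kb had no KO partner. Of the KO H4K20me3 length in this span 47.9% lay on MINA intervals of WT cells, beside 12.9% over all chromosomes. WT MINA itself covered 22.4% of the span and 4.06% of all chromosomes. The higher overlap share therefore does not by itself show a closer association of the 2 here.

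MINA was the antibody with the most covered length of the type II span in WT. It lay there in 12 intervals over 176.6 kb (22.4% of the span), and in KO in 2 intervals over 11.0 kb, a ratio of 0.0623. In the type I span 10 WT intervals covered 98.2 kb (9.92%) and 4 KO intervals 12.0 kb, a ratio of 0.122. The WT share was 4.06% over all chromosomes, but 17.1% and 36.7% in the flanks before and after the type II span and 42.3% and 41.7% in those of the type I span. The type II span thus lay between its flanks, and the type I span below both of its own. The ratio was 0.298 over all chromosomes, 0.231 in the rest of chromosome 12 and 0.213 in the rest of chromosome 17. The flanks before and after the type II span had ratios of 0.0399 and 0.181, so the low ratio was not confined to the keratins. MINA was at least 2-fold lower in KO in 69.5% of 1586 windows of 790 kb and in 68.2% of 1442 windows of 990 kb. How many windows had ratios as low as those of the spans was not counted. Of the 22 WT intervals 17 were not found in KO (77.3%, 56.6% to 89.9%), beside 61.2% of the list, and 1 of the 6 KO intervals was not found in WT (16.7%, 3.01% to 56.4%), beside 16.9% of the list. KO cells make no mdig, so their intervals are what the antibody returned without it.

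At the near end of the type II span WT MINA covered 64.6% of 145.0 kb, in intervals of 26.8 kb (0.6 to 27.4 kb), 24.4 kb (28.2 to 52.6 kb), 10.0 kb (63.8 to 73.8 kb), 23.8 kb (75.0 to 98.8 kb), 5.2 kb and 3.4 kb. Here the only KO partner was the interval from 61.4 to 71.8 kb, 10.4 kb wide, which met the WT interval from 63.8 kb. It overlapped H3K4me3 of KO cells for 7.8 kb and KO H4K20me3 for 10.0 kb. The remaining KO interval, from 56.8 to 57.4 kb, was 0.6 kb wide and overlapped no other list. At the far end 4 WT intervals of 13.2, 1.8, 19.8 and 12.4 kb covered 54.4% of 86.8 kb, and KO had none. Those of 19.8 kb (729.6 to 749.4 kb) and 12.4 kb (776.0 to 788.4 kb) lay on H3K4me3 for 14.8 and 9.4 kb and on H3K36me3 for 10.8 and 12.4 kb. Both ends of the type II span thus held MINA over active marks in WT.

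Part of WT MINA lay off H3K4me3. In the type II span 5 of the 12 WT intervals had no H3K4me3, and one of these 5, from 75.0 to 98.8 kb, lay on WT H3K36me3 for 16.8 kb. Of the MINA length 32.6% was on H3K4me3, beside 49.7% over all chromosomes, and 43.4% was on H3K36me3, beside 38.7%. The interval from 663.8 to 686.0 kb (53223801 to 53246000), 22.2 kb wide, and the one from 718.0 to 719.8 kb overlapped no interval of any other list, while the one from 146.2 to 159.8 kb contained the WT H4K20me3 interval. In the type I span 4 of the 10 overlapped H3K4me3, and 22.4% of the length was on it and 9.78% on H3K36me3. More of the length, 57.6%, was on WT H4K20me3, beside 8.37% over all chromosomes. That mark itself covered 18.8% of the span and 2.28% of all chromosomes, while H3K4me3 and H3K36me3 covered 3.90% and 1.66% of the span. The overlap shares are not corrected for this. Taken over the length of each mark in WT, MINA lay on 57.0% of H3K4me3, 58.5% of H3K36me3 and 30.3% of H4K20me3 in this span. The widest MINA interval, from 866.6 to 898.2 kb, was 31.6 kb wide. This MINA interval contained the widest H3K4me3 interval of the span, 11.6 kb, 9.6 kb of H3K36me3 and 26.2 kb of H4K20me3. It was left in KO as 5.2 kb from 877.0 to 882.2 kb, on H3K4me3 throughout. The interval before it, of 16.8 kb from 849.0 kb, lay on H4K20me3 throughout and was left as 2.8 kb.

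Near the end of the type I span WT MINA lay from 966.4 to 975.0 kb and from 976.6 to 983.2 kb (39766401 to 39775000 and 39776601 to 39783200). The last of these overlapped no other list. The stretch from 906.4 kb to the end of the span had no H3K4me3 or H3K36me3 in either genotype, and KO had no MINA there. The other WT intervals, of 3.8, 1.6, 7.2, 7.4, 6.2 and 8.4 kb, lay at 3.6, 219.0, 679.0, 758.8, 819.0 and 900.6 kb. Of these, the intervals at 3.6 and 758.8 kb were found in KO, with 2.2 and 1.8 kb. The MINA left in KO in the type I span lay at 4 places, and 61.7% of its 12.0 kb was on KO H3K4me3 and none on KO H4K20me3. Over all chromosomes the shares of KO MINA were 69.3% and 24.2%. KO H4K20me3 itself covered 3.56% of the type I span. In the type II span 90.9% of the 11.0 kb of KO MINA was on KO H4K20me3.

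The promoters of the members were read from RefSeq windows on GRCh38.p14 that run from 250 bases before an annotated start to 50 bases after it, all from the minus strand in this set. Of the 55 keratin genes 34 matched, with 38 starts, 14 genes in the type II and 20 in the type I cluster. KRT18, KRT19, KRT7, KRT14, KRT17, KRT80, KRT81 and KRT1 were not among them. KRT40 and KRT85 have several starts, which are not independent. The 100 bases before the start are shown for 10 of them, chosen after their letters were seen, because many members share a motif at nearly the same place. The capitals mark the letters TATAAA, the core of the TATA box at which the basal transcription machinery assembles.
KRT25: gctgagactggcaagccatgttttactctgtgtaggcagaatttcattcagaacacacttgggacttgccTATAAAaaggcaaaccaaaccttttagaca
KRT33B: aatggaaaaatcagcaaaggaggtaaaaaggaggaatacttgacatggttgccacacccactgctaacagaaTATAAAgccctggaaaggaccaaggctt
KRT35: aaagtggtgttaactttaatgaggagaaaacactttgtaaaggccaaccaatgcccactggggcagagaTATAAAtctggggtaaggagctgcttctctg
KRT10: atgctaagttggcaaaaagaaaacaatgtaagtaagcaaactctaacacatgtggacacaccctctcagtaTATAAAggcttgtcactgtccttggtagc
KRT71: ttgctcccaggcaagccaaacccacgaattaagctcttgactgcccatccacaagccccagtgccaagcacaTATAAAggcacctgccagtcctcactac
KRT3: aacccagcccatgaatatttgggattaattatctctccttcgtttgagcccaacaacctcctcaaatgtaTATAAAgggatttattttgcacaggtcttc
KRT8: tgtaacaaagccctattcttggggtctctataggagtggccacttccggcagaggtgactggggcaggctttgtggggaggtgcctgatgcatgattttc
KRT20: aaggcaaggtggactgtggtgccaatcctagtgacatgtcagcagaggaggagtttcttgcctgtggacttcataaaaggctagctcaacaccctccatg
KRT5: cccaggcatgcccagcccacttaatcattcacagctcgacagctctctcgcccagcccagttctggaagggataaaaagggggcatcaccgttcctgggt
KRT9: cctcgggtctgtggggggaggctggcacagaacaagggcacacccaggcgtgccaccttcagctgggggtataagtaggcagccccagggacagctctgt

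The motif TATAAA stood 20 to 40 bases before the start, on the strand of the gene, in 16 of the 38 keratin windows (42.1%), beside 2.30% of all 35116 windows. Its position in these 16 was 27 to 31 bases before the start. Searched on both strands of the whole 300-base window (as TTTATA on the other strand) it was found in 21 of 38 (55.3%), beside 11.5% of all windows, where a match on either strand counts and matches on both may overlap. It stood 20 to 40 bases before the start in 3 of 15 windows of the type II and 13 of 23 (56.5%) of the type I cluster, a difference that was not tested. Among the hair keratins 12 of 26 windows had it near the start, among them KRT25, KRT33B, KRT35 and KRT71 shown here. Among the epidermal and stratified keratins it was 4 of 10, namely KRT24, KRT10, KRT76 and KRT3. The KRTAP genes of the type I cluster had it there in 15 of 33 windows. It was in none of the windows of KRT8 and KRT20, the only simple epithelial keratins matched, and not in those of KRT5 or KRT9. The KRT8 window belongs to 1 annotated start, and whether these cells use that start was not tested. A match describes the letters only, and its absence says only that these letters are not in the window. Near matches such as ataaaa, which the KRT5 and KRT20 sequences above hold, were not counted. Among the other windows without TATAAA near the start, ataaaa was in the 100 bases before the start of KRT74, KRT75, KRT79, KRT82, KRT84 and KRT85 (start 1), all type II, and of KRT32, type I. The shares of the type II and type I clusters given above are thus shares of the exact letters only.

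**Figure D5:**
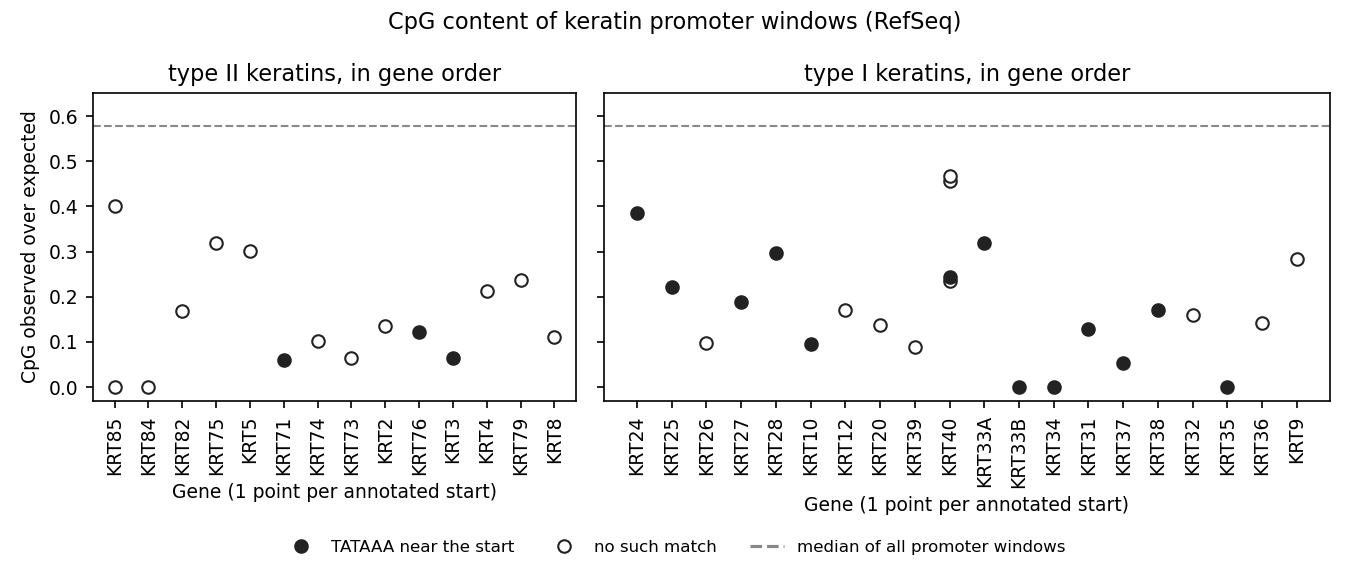
CpG observed over expected (y axis) in the 300-base promoter windows of keratin genes, in gene order on the x axis, type II on the left and type I on the right, with 1 point per annotated start. Filled points have TATAAA 20 to 40 bases before the start, and all points lie below the dashed median of all windows (0.579).

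The keratin windows were also poor in CpG, the dinucleotide that is dense at the promoters of widely used genes. The number of CpG observed over that expected from the C and G content had a median of 0.151 over the 38 keratin windows and did not exceed 0.468, beside a median of 0.579 over all windows. Median G and C content was 45.7%, beside 58.7%. The KRT8 window had a ratio of 0.111 and that of KRT20, which is used in the gut, had 0.138. KRT5 had 0.301, KRT9 of the palm and sole 0.284 and KRT10 0.0962, while the windows of the hair keratins KRT33B, KRT34, KRT35 and KRT84, and 1 of the 2 of KRT85, held no CpG. KRT8 and KRT20 were the only 2 of the 7 simple epithelial keratins with a window, too few to describe that group.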

How the data were processed

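The submitters' processing notes name BWA, a read aligner, SICER 1.1, a caller of broad enriched intervals, and the build hg19. The deposited file gives each interval as a start and an end in bp on a 200-bp grid, with no score. The sources used here do not give SICER's window, gap and threshold settings, the use of the input library or any scaling to depth. The input and a merged list were not used.

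Intervals that overlapped a span by at least 1 bp were its members. Lengths were clipped to the span and widths were not. Coordinates are 1-based. An interval was found in the other genotype if at least 1 bp overlapped. Shares of whole lists, and windows of the length of a span laid end to end outside the spans, with at least 10 kb covered and a 2-fold difference, gave the background. Stretches with active marks were joined across up to 100 kb, set after the data were seen. Chromosomes ran to their outermost intervals. Python 3.11.15, numpy 2.4.6, scipy 1.17.1 and matplotlib 3.10.9 were used, and the interval arithmetic was tested on simulated data. 95% Wilson intervals cover counting error only.

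Named were all intervals of H3K4me3, H3K36me3 and MINA and the 5 widest of H3K9me3 and H4K20me3 per span and genotype. A planned comparison of keratin proteins was not done, since no protein table was used here. The members, gene lists and comparisons were chosen with earlier results of these data known. The alternatives were intervals of at least 2 kb only, merging within 5 kb, spans widened by 50 kb and a 50% overlap.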

Additional observations from a re-analysis of the deposited data

How the results depend on the processing

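The KO minus WT difference in covered share of a span kept its sign for all 5 antibodies and both spans under each alternative (intervals of at least 2 kb only, merging within 5 kb, spans widened by 50 kb). In 28 of these 30 cases it stayed within the 95% interval that Wilson limits over windows of 200 bp give the value as deposited. That interval takes neighbouring windows as independent, which they are not, so it serves as a yardstick and not as an error of the share. With the spans widened, the MINA difference was -23.10 percentage points in the type II span and -11.27 in the type I span, against -20.96 and -8.71. The counts of intervals found in the other genotype stayed within 1.5 times in 18 of 20 cases. When at least 50% of an interval had to be covered, 3 rather than 7 of the 15 WT intervals of H4K20me3 and 2 rather than 5 of the 22 WT intervals of MINA were found in KO, and the cause was not tested. No paired analysis was possible because each antibody and genotype had 1 library. With no replicates and unknown depth, neither a replicate error nor a detection limit can be given, and genes could not be placed on the intervals.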
